A study of Mus musculus with 14 samples.

Results

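The genes of matrix metalloproteases (MMPs), of the ADAMTS proteases and ADAMTS-like proteins, and of the tissue inhibitors of metalloproteases (TIMPs) were examined in bulk RNA-Seq of mouse esophagus. Members were all genes whose symbol is Mmp, Adamts, Adamtsl or Timp followed by a number. This gave 51 of the 55291 genes listed, namely 23 Mmp, 19 Adamts, 5 Adamtsl and 4 Timp genes. The samples came from 9 C57BL/6 mice, which the labels divide into aged (18 months or older) and young (4 months or younger). Epithelium, obtained by peeling the muscle layers away, was sequenced from 5 aged mice (O1, O2, O3, OF5 and OM8) and 4 young mice (Y1, Y3, YF5 and YM4). Stroma was sequenced from 3 of the aged (O1, O2 and O3) and 2 of the young mice (Y1 and Y3) as well. The mice were wild type per the study's methods, and the labels name no treatment.

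MMPs are zinc endopeptidases that cleave collagens, laminins, proteoglycans and other proteins outside the cell. Most are secreted as inactive proenzymes, while others are held at the cell surface, and a propeptide must be removed before they act. ADAMTS proteases are secreted zinc proteases with thrombospondin repeats. They trim procollagens, cut aggrecan and versican, and process von Willebrand factor. ADAMTS-like proteins share the repeats but lack the protease domain and bind to fibrillin microfibrils. TIMPs block the active site of MMPs and, in the case of Timp3, of several ADAMTS proteases. In a stratified squamous tissue, fibroblasts of the connective tissue are a well known source of many of these proteins.

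Total counts ranged from 8217516 to 21867101 in the 9 epithelial samples and from 13257833 to 15644580 in the 5 stromal samples. The 4 epithelial samples OF5, OM8, YF5 and YM4, which have no stroma and mouse codes of another form, stood apart. A ribosomal RNA locus, CT010467.1, took 63.9 to 73.9% of their counts, against 10.4 to 23.3% in the other 5, and they held 385 to 820 counts of members, against 5152 to 8171. Values are given as normalized counts, which are counts divided by the library size after TMM scaling over all 14 samples (CPM). In these 4 samples 3 counts correspond to 0.707 to 1.25 normalized counts, and in the other 10 to 0.0872 to 0.175. The number of genes with any count also varied, and was 38332 and 39907 in the epithelium of O1 and Y3 and 16695 to 31264 in the other epithelial samples. In stroma it was 22961, 25497 and 20115 in O1, O2 and O3 and 34224 and 41308 in Y1 and Y3. All 7 keratinocyte markers were higher in epithelium, where their sum was 16713 to 53238 against 44.6 to 443 in stroma. The 9 skeletal muscle markers were lower in epithelium, with sums of 160 to 1534 against 37636 to 69341. The epithelial samples were not free of connective tissue, since the sum of 6 fibroblast markers was 280.5 to 632 there and 415 to 1031 in stroma. Because these are bulk samples, fewer cells of a type and less RNA per cell cannot be told apart.

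The first comparison asked how the members differed between epithelium (n = 9) and stroma (n = 5), tested by quasi-likelihood in edgeR with p-values adjusted (Benjamini-Hochberg) over the 16791 genes that passed a filter on low counts. Of the 39 members that passed the filter, 27 were lower in epithelium and 1, Mmp14, was higher at an adjusted p under 0.05, while 11 were not called. Among all genes tested, 30.1% were lower and 26.1% were higher in epithelium, and 56.2% were called in either direction. Of the called members, 14 were lower in every epithelial sample than in every stromal sample, a pattern seen in 16.9% of all genes tested. The median log2 fold change, epithelium over stroma, was -1.62 over the 39 members and -0.05 over all genes tested. These counts describe the members that passed, and a gene seen mainly in 1 layer can pass through that layer alone. Without the 4 epithelial samples that stood apart, 24 of 39 members were lower and 1 was higher, where 56.2% of all genes tested were called. When the mouse was also fitted as a block in these 10 paired samples, 22 of 44 members were lower and 1 was higher, where 38.2% of all genes tested were called, and 5 of the 28 calls were lost. Leaving out the 4 samples without a block already ended 4 of these 5 calls, all but that of Mmp23. Beside Mmp19 and Adamts3, given below, the calls lost with the block were Mmp23 (adjusted p = 0.062), Adamts16 (0.14) and Adamts18 (0.23), whose adjusted p over all alternatives ranged from 9e-06 to 0.062, from 0.0025 to 0.14 and from 0.0067 to 0.23.

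**Figure D1:**
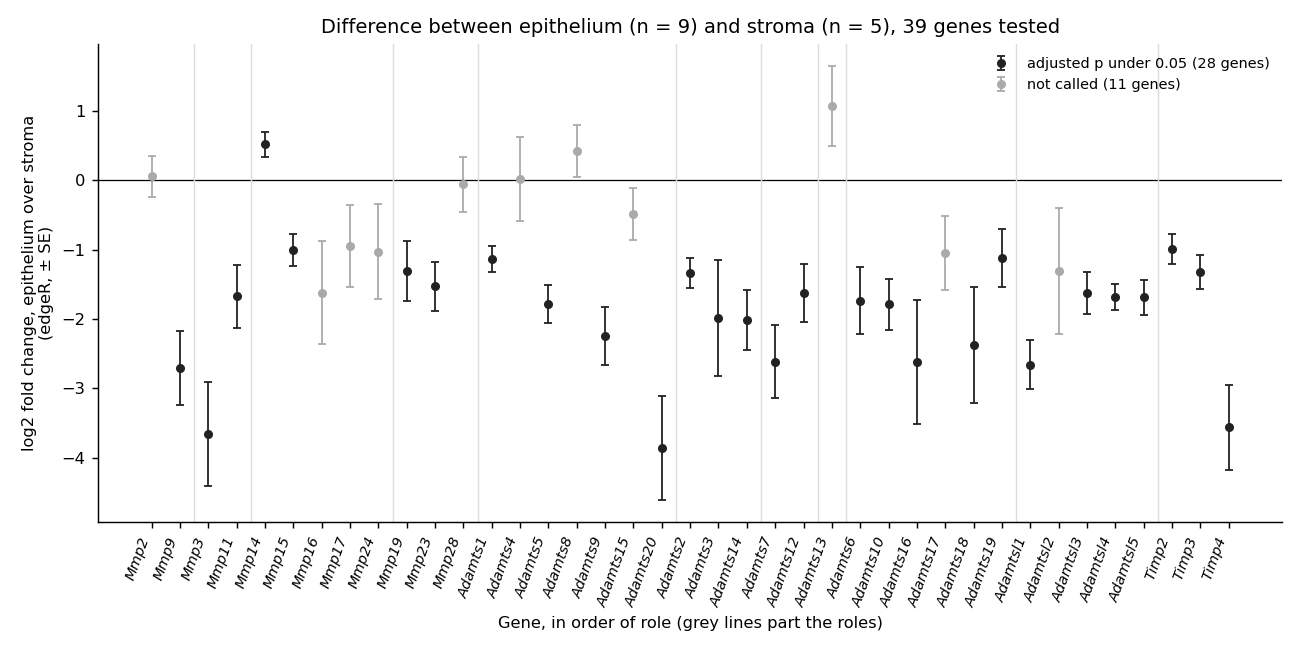
Log2 fold change of epithelium (n = 9) over stroma (n = 5) with its standard error for the 39 members tested, in order of role. Black points are the 28 genes called at an adjusted p under 0.05 and grey points the 11 not called; Mmp14 is the black point above 0.

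Timp2 was the member with the highest level in both layers. On the scale that allows genes to be compared, normalized counts per kb of exons, Timp2 had rank 1 of the 51 members in both layers, at 13.9 ± 3.604 (SD) over the 9 epithelial and 27.8 ± 10.2 (SD) over the 5 stromal samples. Timp2, an inhibitor that also takes part in the activation of Mmp2 at the cell surface, lies on chromosome 11 (118301069 to 118355740, GRCm38). Its normalized count ran from 34.6 to 83.0 (median 55.5) in epithelium and was 69.1, 133 and 164 in the stroma of O1, O2 and O3 and 77.9 and 96.5 in that of Y1 and Y3. The highest epithelial sample, Y3, lay above the 2 lowest stromal samples, but within each of the 5 mice with both layers epithelium was the lower. The log2 fold change was -0.996 (SE 0.22, adjusted p = 0.00054).

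Timp3, which binds to the matrix and inhibits ADAMTS proteases as well as MMPs, had rank 5 among members per kb in epithelium and rank 4 in stroma. It ran from 11.3 to 23.7 normalized counts (median 19.04) in epithelium. In stroma it was 17.7, 72.0 and 67.7 in O1, O2 and O3 and 36.3 and 39.8 in Y1 and Y3, so that O1 stroma was the only stromal sample inside the epithelial range. It was lower in epithelium by a log2 of -1.32 (SE 0.25, adjusted p = 0.00013), in 4 of 5 mice. Timp3 shares 1733 exon bases with Syn3 on the opposite strand, and Syn3 itself had 0 to 0.949 normalized counts in epithelium and 0 to 5.19 in stroma.

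Timp4 and Timp1 were far less abundant. Timp4, an inhibitor known from heart and fat tissue, was 2.51, 2.42 and 1.87 normalized counts in the stroma of O1, O2 and O3 and 2.12 and 3.62 in that of Y1 and Y3. In epithelium it ran from 0 to 0.458 with a median of 0.0414, and every epithelial sample lay below every stromal sample (11.8-fold lower, log2 fold change -3.56, SE 0.61, adjusted p = 4.7e-05). The highest epithelial values, 0.458 in Y3 and 0.407 in O1, were in the samples with the most genes detected, and the part of that coverage in them was not tested. The sums of 4 adipocyte markers were also lower in epithelium, at 0 to 0.756 against 86.2 to 411 in stroma. Those of 4 Schwann cell markers were too, at 0.471 to 7.64 against 10.7 to 61.8. Within stroma the adipocyte sums were 95.0, 86.2 and 206 in O1, O2 and O3 and 127 and 411 in Y1 and Y3. Timp4 and the adipocyte sum were both highest in Y3, while Timp4 was lowest in O3 and the adipocyte sum in O2. The part of these cells in the difference between the layers was not tested. Timp1, an inhibitor that cells induce in injury, did not pass the filter in the main comparison and had at most 16 counts in any sample. In alternatives it was called between the layers with age as a covariate and without O3 stroma. Without a filter on low counts it was tested and not called, and it was not called with mouse as a block. Its normalized counts were 0.7, 0.575 and 0 in the stroma of O1, O2 and O3, 0.826 and 0.433 in that of Y1 and Y3, and 0 to 0.124 in epithelium.

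**Figure D2:**
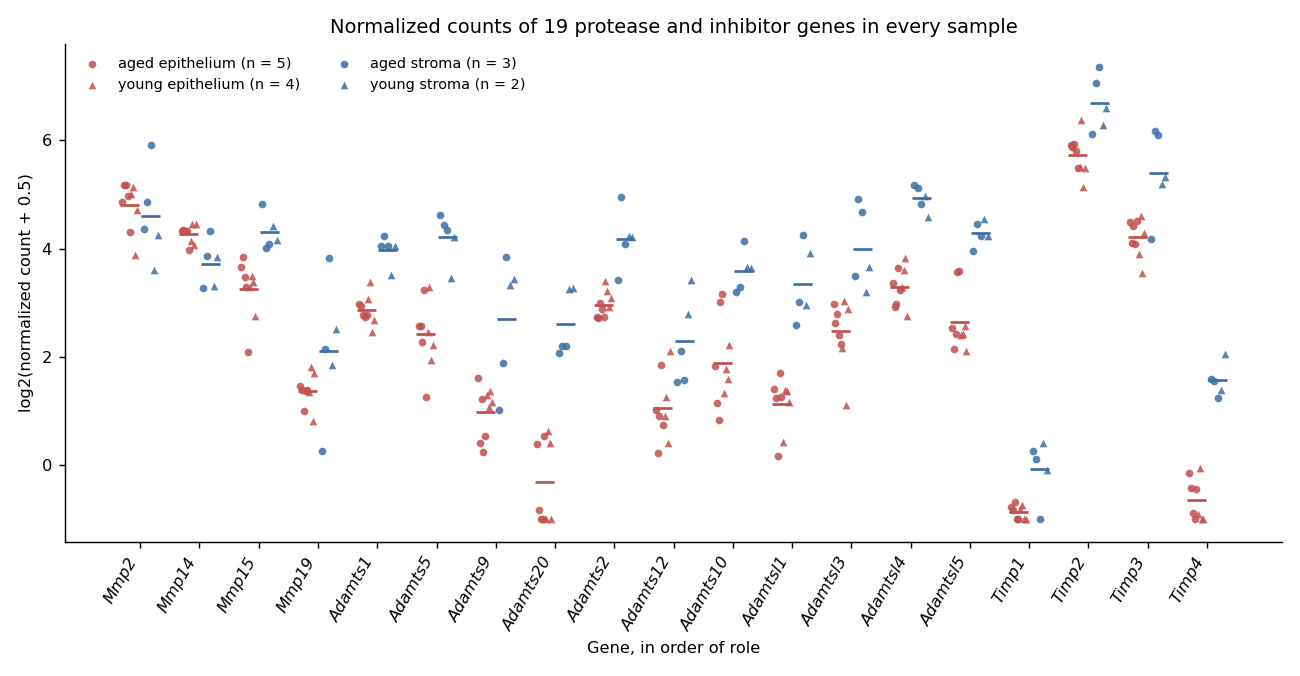
Normalized counts of 19 members in every sample, as log2 of the normalized count plus 0.5, by gene in order of role. Red points are epithelium and blue points stroma, circles aged and triangles young mice, and each bar is the mean of the log2 values of a layer; the Timp2 points lie highest, and Mmp2 and Mmp14 are the genes whose epithelial mean is not below the stromal mean.

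Mmp14 and Mmp2 departed from the prevailing direction. Mmp14 encodes a membrane-anchored MMP that cleaves fibrillar collagen and activates the proenzyme of Mmp2, and it lies on chromosome 14 (54431612 to 54445364). It ran from 15.3 to 21.6 normalized counts (median 19.6) in epithelium and was 9.16, 14.1 and 19.5 in the stroma of O1, O2 and O3 and 9.39 and 13.9 in that of Y1 and Y3. O3 stroma lay inside the epithelial range and the other 4 stromal samples lay below it. Mmp14 was 1.43-fold higher in epithelium (log2 fold change 0.52, SE 0.18, adjusted p = 0.022), in 5 of 5 mice, with a within-mouse difference from 0.01 to 1.06 on the log2 scale. This call did not hold without O1 stroma (adjusted p = 0.067), without Y1 stroma (0.07) or without the epithelium of Y3 (0.053), nor when only genes reaching 10 counts in all samples were tested (0.29), and adjusted p ranged from 0.0022 to 0.29 over all alternatives.

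Mmp2, a gelatinase that degrades type IV collagen and denatured collagens (chromosome 8, 92827291 to 92853420), had rank 2 per kb in both layers, at 8.46 ± 2.24 (SD) over the 9 epithelial and 8.23 ± 5.62 (SD) over the 5 stromal samples. Its normalized count ran from 14.2 to 35.7 (median 31.0) in epithelium and was 20.2, 28.5 and 59.9 in the stroma of O1, O2 and O3 and 11.7 and 18.4 in that of Y1 and Y3. The stromal values fell on both sides of the epithelial range, and epithelium was the higher in 4 of 5 mice and the lower in O3. The difference was not called (log2 fold change 0.05, SE 0.30, adjusted p = 0.89), and its sign depended on the samples and the scaling used.

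The fibroblast markers are the values to be set beside these results. Col1a1, which encodes a chain of type I collagen and was on that list, was 93.4 ± 26.5 normalized counts (SD) over the 9 epithelial and 111 ± 35.3 (SD) over the 5 stromal samples and was not called (adjusted p = 0.38). Of the 6 fibroblast markers 3 were lower in epithelium and 3 were not called, with a median log2 fold change of -0.61. The 5 endothelial markers were all lower in epithelium (sums of 12.9 to 24.2 against 39.3 to 104), as were 4 of 5 macrophage markers (14.5 to 45.1 against 28.2 to 101). The 5 neutrophil markers had sums of 4.48 to 10.4 in epithelium and 0 to 7.74 in stroma. Of the 3 tested, Cxcr2 was higher in epithelium, Mpo was lower and Csf3r was not called. The part of these cell types in the members' differences was not tested.

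Among the other membrane-bound MMPs only Mmp15 was called. It ran from 3.77 to 13.96 normalized counts in epithelium and was 27.8, 15.7 and 16.5 in the stroma of O1, O2 and O3 and 20.9 and 17.3 in that of Y1 and Y3, with no overlap (log2 fold change -1.003, SE 0.23, adjusted p = 0.00088). Mmp14 and Mmp15, which are close relatives in structure, thus had log2 fold changes of opposite sign between the layers. The call of Mmp14 was lost in 4 of 22 alternatives and that of Mmp15 in 0. Mmp16, Mmp17 and Mmp24 had layer means of at most 2.45 normalized counts and were not called, and Mmp25 was not tested.

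Of the remaining MMPs, Mmp9, Mmp3, Mmp11, Mmp19 and Mmp23 were lower in epithelium. Mmp9, the gelatinase that neutrophils and macrophages carry, was 0.584 ± 0.531 (SD) over the 9 epithelial and 3.80 ± 1.22 (SD) over the 5 stromal samples without overlap (log2 fold change -2.71, SE 0.53, adjusted p = 0.0002). Mmp3, the stromelysin that activates other proenzymes, was 2.98, 0.452 and 4.51 in the stroma of O1, O2 and O3 and 1.03 and 2.80 in that of Y1 and Y3, and 0 to 0.943 in epithelium (log2 fold change -3.66, SE 0.75, adjusted p = 0.00033). Mmp11 overlaps Chchd10 by 155 exon bases on the opposite strand, and Chchd10 had 119 to 189 normalized counts in stroma and 3.77 to 15.0 in epithelium. Whether strand was used in counting is not given in the sources used here, so the part of Chchd10 reads in the difference of Mmp11 (log2 fold change -1.67, SE 0.45, adjusted p = 0.0038) was not tested.

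Mmp19, a protease of basement membrane proteins, rested on few samples. It was 0.7, 3.90 and 13.6 in the stroma of O1, O2 and O3 and 3.10 and 5.201 in that of Y1 and Y3, and 1.25 to 3.01 (median 2.12) in epithelium, so that the stromal values spanned the epithelial ones. The log2 fold change of -1.31 (SE 0.44, adjusted p = 0.015) became -1.26 in the 10 paired samples (adjusted p = 0.075), -0.65 there with mouse as a block (adjusted p = 0.42) and -0.59 without O3 stroma (adjusted p = 0.2), and adjusted p ranged from 0.00064 to 0.42 over all alternatives. Mmp28, a protease of keratinocytes and other epithelia, was among the members not called, at 4.33 ± 1.28 (SD) over the 9 epithelial and 4.42 ± 2.92 (SD) over the 5 stromal samples, with a difference of -0.06 (SE 0.40) on the log2 scale.

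The 10 members of a cluster on chromosome 9 (7272514 to 7699585, neighbours no more than 100000 bases apart) had low counts, apart from Mmp3 in stroma. They are Mmp13, Mmp12, Mmp1b, Mmp3, Mmp1a, Mmp10, Mmp8, Mmp27, Mmp20 and Mmp7, which include the collagenases, the metalloelastase and the matrilysin. Of these only Mmp3 passed the filter, and the other 9 had at most 29 counts and 1.25 normalized counts in any sample. They make up 9 of the 12 members not tested, the others being Mmp21, Mmp25 and Timp1.

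The sequences before the starts of these genes differed from those of the other members in the motifs they held. RefSeq promoter entries (GRCm38.p6) were matched for 36 of the 51 members, and the 250 bases before each annotated start were searched on both strands. The AP-1 motif TGANTCA, a site for Fos and Jun proteins, was found in 8 of the 10 cluster genes, in 0 of the 26 other members matched and in 6.75% of all 32851 promoter entries. The TATA box TATAAA was found in 7 of the 10 and 3 of the 26 (12.4% of all entries), and both motifs together in 7 of the 10, 0 of the 26 and 1.21% of all entries. The GC box GGGCGG, a site for Sp1-type factors, was found in 0 of the 10, 20 of the 26 and 32.7% of all entries. Cluster genes share their origin by duplication and are not independent of each other, and a match is a description of the letters, not of binding.

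**Figure D3:**
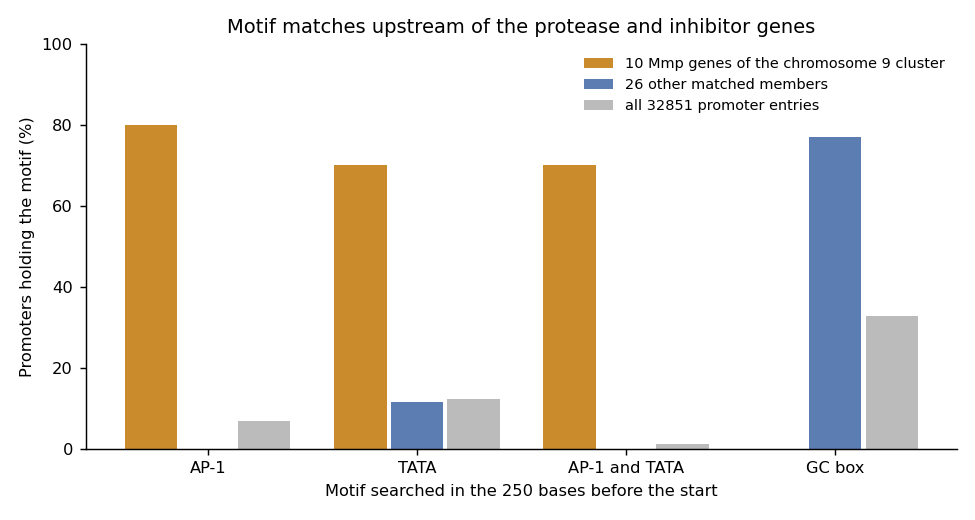
Share of promoters that hold each motif in the 250 bases before the annotated start, for the 10 Mmp genes of the chromosome 9 cluster, the 26 other members matched and all 32851 RefSeq promoter entries. The AP-1 bar of the cluster stands at 8 of 10 genes and that of the other members at 0 of 26, while the GC box has the opposite order.

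The upstream sequences below show these motifs in 2 genes of the cluster, Mmp3, which was called between the layers, and Mmp13, which was not tested, and in 2 members outside it. Each is written 5′ to 3′ on the strand of its gene and ends just before the annotated start, and capitals mark the AP-1 motif and TATA box (Mmp3, Mmp13) or the GC boxes (Mmp14, Adamtsl4). In Mmp3 and Mmp13 the TATA box is near the 3′ end and the AP-1 motif lies before it.
Mmp3 promoter, chr9:7445572-7445821, plus strand: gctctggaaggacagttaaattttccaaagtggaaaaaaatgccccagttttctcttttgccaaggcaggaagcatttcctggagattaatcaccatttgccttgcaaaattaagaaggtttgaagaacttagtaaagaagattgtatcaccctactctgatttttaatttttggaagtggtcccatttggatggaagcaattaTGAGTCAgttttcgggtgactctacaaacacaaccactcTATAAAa
Mmp13 promoter, chr9:7272264-7272513, plus strand: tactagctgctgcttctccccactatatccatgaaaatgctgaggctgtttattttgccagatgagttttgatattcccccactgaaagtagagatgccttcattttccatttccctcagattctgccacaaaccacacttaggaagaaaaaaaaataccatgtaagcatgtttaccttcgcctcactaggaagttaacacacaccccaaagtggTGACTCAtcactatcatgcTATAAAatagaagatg
Mmp14 promoter, chr14:54431348-54431597, plus strand: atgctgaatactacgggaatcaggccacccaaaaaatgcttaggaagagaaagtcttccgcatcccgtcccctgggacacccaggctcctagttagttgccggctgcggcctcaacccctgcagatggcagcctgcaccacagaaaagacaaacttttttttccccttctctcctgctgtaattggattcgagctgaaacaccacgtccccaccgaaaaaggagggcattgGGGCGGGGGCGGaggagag
Adamtsl4 promoter, chr3:95687918-95688167, minus strand: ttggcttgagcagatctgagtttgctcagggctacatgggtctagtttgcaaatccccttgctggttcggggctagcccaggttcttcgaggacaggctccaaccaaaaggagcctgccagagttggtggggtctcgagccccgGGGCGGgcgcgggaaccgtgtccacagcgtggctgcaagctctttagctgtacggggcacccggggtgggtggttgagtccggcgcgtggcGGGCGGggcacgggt

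All 19 ADAMTS protease genes passed the filter, and 14 of them were lower in epithelium and none was higher, with 5 not called. Among all genes tested, 30.1% were lower and 26.1% higher. The calls of Adamts3, Adamts6, Adamts18 and Adamts19 were lost without a filter on low counts. Those of Adamts3, Adamts16 and Adamts18 were lost with mouse as a block. Among the proteoglycanases, which cut aggrecan and versican, Adamts1, Adamts5, Adamts9 and Adamts20 were lower in epithelium. Adamts1 and Adamts5 are neighbours on chromosome 16 (85793827 to 85901828). Adamts1 ran from 5.0005 to 9.91 normalized counts (median 6.38) in epithelium and was 16.0, 18.4 and 16.1 in the stroma of O1, O2 and O3 and 10.9 and 16.0 in that of Y1 and Y3 (log2 fold change -1.13, SE 0.18, adjusted p = 2.9e-05). Adamts5 ran from 1.89 to 9.22 (median 5.03) in epithelium and was 24.2, 21.2 and 19.8 in the aged and 10.5 and 18.0 in the young stroma. It was 3.45-fold lower in epithelium (adjusted p = 1.2e-05). The layers did not overlap for either gene.

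Adamts20 and Adamts9, which are close relatives and cut versican, had larger differences on the log2 scale. Adamts20 was 3.68, 4.07 and 4.09 in the stroma of O1, O2 and O3, 9.08 and 9.22 in that of Y1 and Y3, and 0 to 1.05 in epithelium (log2 fold change -3.87, SE 0.75, adjusted p = 0.00024). Adamts9 was 1.52, 3.20 and 13.9 in the aged and 9.60 and 10.4 in the young stroma and 0.689 to 2.56 in epithelium, and only O1 stroma lay inside the epithelial range (log2 fold change -2.25, SE 0.42, adjusted p = 0.00013). The other proteoglycanases, Adamts4, Adamts8 and Adamts15, were not called. Adamts8 was 3.45 ± 0.849 (SD) over the 9 epithelial and 2.59 ± 1.48 (SD) over the 5 stromal samples, a log2 difference of 0.43 (SE 0.37, adjusted p = 0.34).

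The procollagen N-proteinases Adamts2, Adamts3 and Adamts14, which remove the amino-terminal propeptide of fibrillar procollagens, were all lower in epithelium. Adamts2 was the most abundant of them and ran from 6.06 to 10.02 normalized counts (median 7.08) in epithelium. In stroma it was 10.2, 30.6 and 16.6 in O1, O2 and O3 and 18.3 and 18.0 in Y1 and Y3, so that the lowest stromal sample was only just above the highest epithelial one (2.52-fold lower in epithelium, adjusted p = 2.5e-05). The call of Adamts3 (log2 fold change -1.98, SE 0.83, adjusted p = 0.049) was lost in 10 of the 13 fits that left out 1 sample and tested it, in the 10 paired samples and in these with mouse as a block (log2 fold change -1.22, adjusted p = 0.39), and adjusted p ranged from 0.0049 to 0.39 over all alternatives. The genes whose products cleave cartilage oligomeric matrix protein, Adamts7 and Adamts12, were both lower in epithelium, by log2 values of -2.62 (SE 0.53) and -1.63 (SE 0.42). Adamts12 was 2.39, 3.82 and 2.49 in the aged and 6.45 and 10.2 in the young stroma and 0.666 to 3.81 (median 1.38) in epithelium.

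Adamts10, which binds fibrillin microfibrils, was 8.69, 9.33 and 17.1 in the stroma of O1, O2 and O3 and 12.1 and 12.0 in that of Y1 and Y3, above all epithelial samples at 1.28 to 8.49 (median 2.94). The highest epithelial values, 7.58 in OF5 and 8.49 in OM8, were in samples that stood apart in depth. Its log2 fold change was -1.79 (SE 0.37, adjusted p = 0.00034). Adamts13, the protease of von Willebrand factor, had the largest positive log2 fold change of the 39 members but was not called (1.08, SE 0.58, adjusted p = 0.12). It was 2.14 ± 0.985 (SD) over the 9 epithelial and 0.982 ± 0.695 (SD) over the 5 stromal samples.

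Of the ADAMTS-like genes, Adamtsl1, Adamtsl3, Adamtsl4 and Adamtsl5 were lower in every epithelial sample than in every stromal sample, and Adamtsl2 was not called. That pattern was seen in 16.9% of all genes tested. Adamtsl4, mutations of which displace the lens of the eye, had the smallest adjusted p of the members. It lies on chromosome 3 (95676201 to 95687917), had rank 3 per kb in stroma, and ran from 6.23 to 13.8 normalized counts (median 9.24) in epithelium. In stroma it was 35.6, 34.3 and 27.8 in O1, O2 and O3 and 30.8 and 23.4 in Y1 and Y3 (log2 fold change -1.69, SE 0.18, adjusted p = 1.4e-07). Adamtsl5 went from 3.81 to 11.5 (median 4.85) in epithelium and was 15.1, 21.4 and 18.3 in the aged and 22.9 and 18.4 in the young stroma, a log2 fold change of -1.69 (SE 0.25). Adamtsl1 was 5.54, 7.56 and 18.6 in the aged and 7.28 and 14.7 in the young stroma against 0.621 to 2.76 in epithelium (6.32-fold lower, adjusted p = 1.9e-06). Adamtsl3 was 10.8, 29.7 and 25.0 in the aged and 8.72 and 12.2 in the young stroma against 1.67 to 7.72 in epithelium (3.08-fold lower, adjusted p = 0.00011).

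The balance of the families followed from these values. Per kb of exons, the 4 Timp genes summed to 10.3 to 24.4 normalized counts in epithelium and 21.1 to 50.8 in stroma, and the 23 Mmp genes to 12.4 to 19.8 and 16.0 to 38.9. The ratio of the Timp sum to the Mmp sum was 0.805 to 1.25 in epithelium and 1.02 to 2.05 in stroma, ranges that overlap. The sum of the 19 Adamts genes was 4.80 to 7.14 in epithelium and 11.5 to 15.1 in stroma, and that of the 5 Adamtsl genes 3.32 to 6.12 and 12.4 to 17.3, without overlap. Among single genes, the ratio of Timp2 to Mmp14 per kb was 3.18 to 5.89 in epithelium and 10.6 to 14.4 in stroma, and that of Timp2 to Mmp2 was 1.23 to 2.11 and 2.38 to 5.78.

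**Figure D4:**
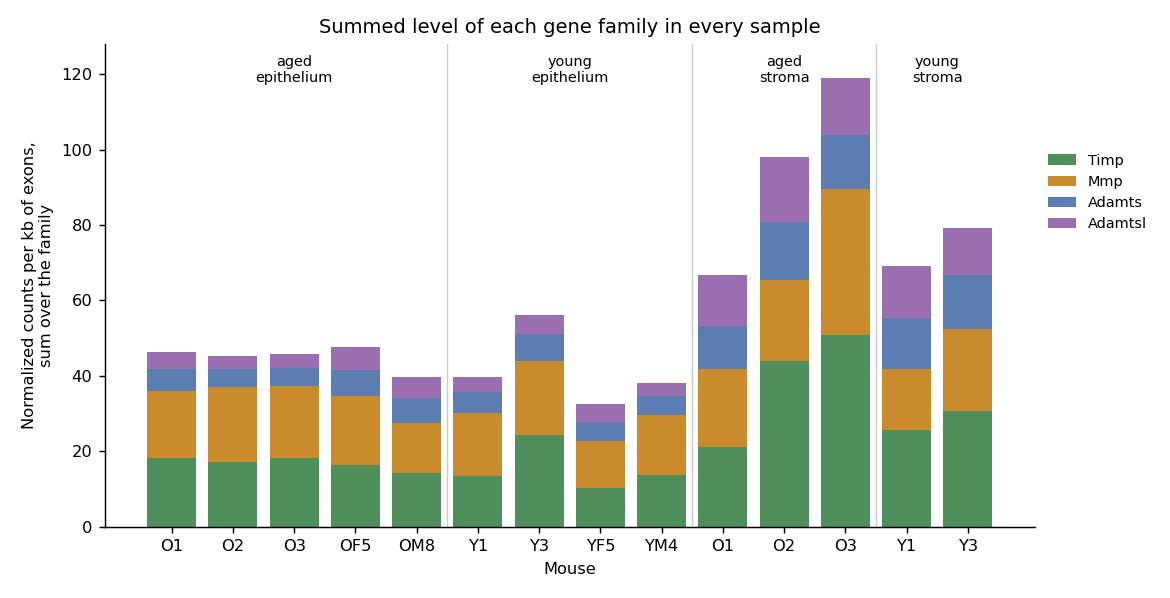
Sum of normalized counts per kb of exons over the Timp, Mmp, Adamts and Adamtsl genes in every sample, stacked, with mice on the horizontal axis grouped by layer and age. The Adamts and Adamtsl parts of the 5 stromal bars, 11.5 to 15.1 and 12.4 to 17.3, are larger than those of all 9 epithelial bars, while the Mmp parts overlap.

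Other genes of the pathway were followed as a list of 15 activators, inhibitors and receptors, of which 2 were higher in epithelium, 8 were lower and 5 were not called. These counts, and those of the substrates below, are to be read against all genes tested. Of those, 26.1% were higher and 30.1% lower in epithelium, and 56.2% were called in either direction. Pcsk6, a proprotein convertase, was higher in epithelium (58.2 to 82.1 normalized counts against 25.1 to 37.0, log2 fold change 1.29, SE 0.15), and so was Cd44, a hyaluronan receptor that holds MMPs at the cell surface (81.3 to 139 against 11.8 to 25.9, log2 fold change 2.71, SE 0.21). Serpine2, an inhibitor of plasminogen activators and thrombin, had the largest difference in the other direction (0 to 1.97 against 20.5 to 33.9, log2 fold change -4.33, SE 0.27). Furin, the convertase that removes the propeptide of Mmp14, was not called, at 35.0 ± 4.20 (SD) over the 9 epithelial and 37.2 ± 3.67 (SD) over the 5 stromal samples. Of 12 substrates, 9 were tested and 7 were lower in epithelium, among them Eln and Fbn1, which encode elastin and fibrillin, at -2.26 (SE 0.20) and -1.37 (SE 0.21). Col1a1 and Col1a2 were the substrates not called.

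The second comparison asked whether the members differed between aged and young mice within a layer. In epithelium (5 aged, 4 young), with a covariate for how the mouse codes are formed, 31 members were tested by edgeR's quasi-likelihood test and 0 were called, where 0.0126% of all 15859 genes tested were called. DESeq2 also called 0 members. At an unadjusted p under 0.05 there were 2 members, Mmp9 and Adamts2, a share of members to be read against 3.21% of all genes tested. In stroma (3 aged, 2 young), 43 members were tested and 0 were called by edgeR or DESeq2, as was the case for 0% of all 21323 genes tested by edgeR. There 5 members had an unadjusted p under 0.05, where 3.64% of all genes did. The median log2 fold change, aged over young, was 0.06 over the members in epithelium and -0.04 in stroma.

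Mmp9 had the smallest unadjusted p of the members in epithelium. Its normalized counts were 0.581, 0.424, 1.16, 1.38 and 1.18 in the aged mice O1, O2, O3, OF5 and OM8 and 0.142, 0.393, 0 and 0 in the young mice Y1, Y3, YF5 and YM4. Every aged value lay above every young value, a pattern seen in 1.27% of all genes tested in either direction, but the 0 counts of YF5 and YM4 allow up to 1.25 and 1.04 normalized counts, and OF5 and OM8 had 4 and 5 counts. The log2 fold change was 1.76 (SE 0.66, unadjusted p = 0.016) and did not pass the adjustment. In the 5 paired mice alone it was 1.38 (SE 0.70, unadjusted p = 0.074). The sum of 5 macrophage markers was 20.2 to 45.1 in aged and 14.5 to 24.5 in young epithelium, with 0 of 5 at an unadjusted p under 0.05, and its part in the values of Mmp9 was not tested.

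Adamts2 was the other member with an unadjusted p under 0.05 in epithelium, at 6.19, 6.06, 7.45, 6.89 and 6.13 in the aged and 10.02, 8.83, 7.08 and 7.96 in the young mice (log2 fold change -0.45, SE 0.18, unadjusted p = 0.023). O3 alone of the aged mice lay above the lowest young mouse. Some of its procollagen substrates had values in the same direction. Col3a1 was 128.5 ± 23.1 (SD) over the 5 aged and 203 ± 21.8 (SD) over the 4 young epithelial samples, with a log2 difference of -0.70 (SE 0.15), and Col1a1 was 76.7 ± 16.2 and 114 ± 21.9, with a log2 difference of -0.62 (SE 0.16). The 9 substrates tested all had negative log2 fold changes, 4 of them at an unadjusted p under 0.05, where 3.21% of all genes were. Of these substrates 0 were called by edgeR (smallest adjusted p = 0.18). Col1a1, Col1a2 and Col3a1 are also fibroblast markers, of which 3 of 6 had an unadjusted p under 0.05. The part of fibroblast content in these values was not tested.

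In stroma, Mmp2 was 20.2, 28.5 and 59.9 in the aged mice O1, O2 and O3 and 11.7 and 18.4 in the young mice Y1 and Y3. All aged values were above the young ones, as was the case, in either direction, for 13 of the 43 members tested and for 20.6% of all genes tested. The log2 fold change was 1.26 (SE 0.46, unadjusted p = 0.022), and it kept its sign in all 10 alternatives run, from 0.66 to 1.61, without passing the adjustment in any. The smooth muscle markers were also higher in aged stroma, with 4 of 5 genes at an unadjusted p under 0.05, where 3.64% of all genes were. Their sums were 941, 2051 and 816 in O1, O2 and O3 and 303 and 600 in Y1 and Y3. Among the aged mice Mmp2 was highest in O3 and the smooth muscle sum in O2. The sums of the macrophage markers were 28.2, 68.8 and 101 in the aged and 45.5 and 49.4 in the young stroma. Those of the fibroblast markers were 415, 873 and 1031 in the aged and 746 and 705 in the young stroma. Both the macrophage and the fibroblast sums were highest in O3, as was Mmp2. Unlike Mmp2, both were lower in O1 than in the young mice. The part of these cell types in the values of Mmp2 was not tested. Of the keratinocyte markers in stroma, 6 were tested and all had positive log2 fold changes (median 2.21), 4 at an unadjusted p under 0.05, with sums of 50.5 to 443 in aged and 44.6 to 72.9 in young mice. Of 4 adipocyte markers, 2 had an unadjusted p under 0.05 with lower values in aged stroma (sums of 86.2 to 206 against 127 to 411). The part of these cells in the stromal values by age was not tested. In epithelium Mmp2 had a log2 fold change by age of 0.09 (SE 0.17). The interaction of age and layer was tested in the 10 paired samples without mouse as a block. For Mmp2 it was -1.26 on the log2 scale (epithelium minus stroma, SE 0.55, unadjusted p = 0.045 by edgeR). Over 13 alternatives it ran from -1.70 to -0.68. By edgeR or by DESeq2, 0 of the 44 members tested were called in the interaction. By edgeR 2 members had an unadjusted p under 0.05 in the interaction, where 4.3% of all genes did. The member beside Mmp2 was Adamts5 (-1.08, SE 0.46, and -1.59 to -0.72 over 13 alternatives).

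The other members at an unadjusted p under 0.05 in stroma were Adamtsl3, Adamts12, Adamts20 and Mmp17. Adamtsl3, given above for each sample, had a log2 fold change of 1.06 (SE 0.45), with Y3 above O1. Adamts12 (-1.52, SE 0.55) and Adamts20 (-1.22, SE 0.47) had all aged values below both young ones. Mmp17, a membrane-bound MMP, was 0.175, 1.81 and 0.574 in the aged and 6.19 and 3.51 in the young stroma (log2 fold change -2.49, SE 1.04). The sum of 4 Schwann cell markers was 10.7 to 36.1 in aged and 44.7 to 61.8 in young stroma, with 1 of 4 genes at an unadjusted p under 0.05, and their part in these values was not tested. Fewer genes had any count in all aged stromal samples (20115 to 25497) than in both young ones (34224 and 41308). The part of that coverage in the stromal values by age was not tested either.

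**Figure D5:**
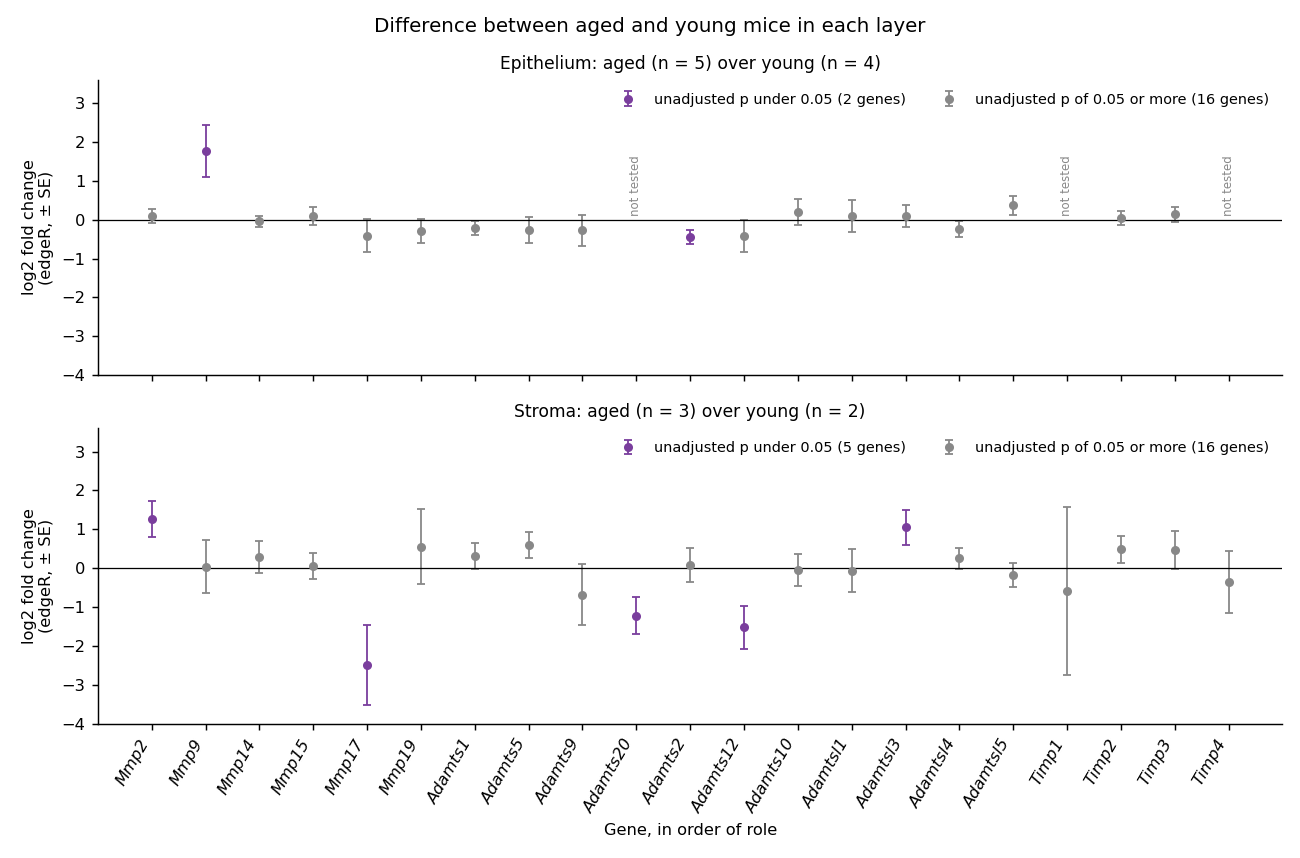
Log2 fold change of aged over young mice with its standard error in epithelium (5 aged, 4 young, upper panel) and stroma (3 aged, 2 young, lower panel) for the named members, in order of role. Purple points have an unadjusted p under 0.05 (2 in epithelium, 5 in stroma) and grey points do not; none passed the adjustment, and genes that did not pass the filter are marked as not tested.

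The inhibitors had small log2 fold changes by age in epithelium. Timp2 was 59.96, 58.6, 60.4, 55.5 and 44.3 in the epithelium of the 5 aged mice, against 45.2, 83.0, 34.6 and 44.7 for the 4 young mice, with a log2 fold change of 0.05 (SE 0.17), and Timp3 had one of 0.14 (SE 0.19). In stroma the log2 fold changes were 0.48 (SE 0.35) for Timp2 and 0.47 (SE 0.50) for Timp3. Those of the low members Timp1 and Timp4 were negative there, at -0.58 and -0.35. Mmp14 was 19.6, 19.9, 19.6, 19.6 and 15.3 in aged epithelium, against 17.1, 21.6, 16.3 and 21.5 for the young mice, a log2 fold change of -0.04 (SE 0.15). The design in stroma, with 3 mice against 2, leaves wide errors, from 0.27 for Adamtsl4 to 2.16 for Timp1 on the log2 scale among the named members tested.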

How the data were processed

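Total RNA was enriched for mRNA with oligo(dT) and sequenced on the Illumina platform, and the submitters' processing notes name bcl2fastq. The authors used Rsubread for alignment to GRCm38.p6, and deposited counts per gene from featureCounts, as whole numbers without normalization. The annotation release, the use of strand and the treatment of reads that match several genes are not given in the sources used here, and paralogs such as Mmp1a and Mmp1b may share reads. Gene positions and exon lengths were taken from GENCODE M21.

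All 14 samples were used, grouped by their labels. The count test was that of edgeR 4.0.16 (R 4.3.3, TMM, filterByExpr with a minimum count of 10, robust glmQLFit and glmQLFTest), with p-values adjusted over all genes tested (Benjamini-Hochberg, threshold 0.05). DESeq2 1.42.0 was an alternative, with others on scaling, filters, covariates, samples and mouse as a block. The layers were paired by the mouse named in both labels (5 mice); deviations from the group means correlated at 0.057 to 0.11 within a mouse over 22771 genes. Replicates differed beyond sampling noise in all 20 pairs (chi-square per degree of freedom of at least 12.0).

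The members, the lists and the roles were chosen with earlier results of these data known. Values in every sample are given for each TIMP and for each member with a mean of at least 5 normalized counts in a layer, and the values of other members, such as Mmp9, Mmp3 and Mmp17, were added after they were seen. Limits from 0 counts (3 counts) cover counting error only.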

Additional observations from a re-analysis of the deposited data

Results flagged for a closer look

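Of 38 groups of 4 or 5 epithelial samples, for 19 members, 4 held a sample that stood apart from the rest of its group by Dixon's criterion at the 95% level, where chance gives about 1 in 20, or 1.9 groups. Mmp14 was 15.3 normalized counts in the aged epithelium of OM8 (65 counts), below the other aged samples at 19.6 to 19.9. Timp2 in the same sample was 44.3, below the others at 55.5 to 60.4. Mmp19 was 1.49 in the aged epithelium of O3, below the others at 2.07 to 2.27. Timp4 was 0.458 in the young epithelium of Y3 (14 counts), above the others at 0 to 0.0354. Groups of 2 or 3 stromal samples were not examined in this way.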

How the results depend on the processing

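For the members with values in every sample, log2 fold changes between the layers kept their direction and their side of the threshold in 371 of 387 alternatives. The calls of Mmp14 and Mmp19 were lost in 7 and the sign of Mmp2, not called, turned in 9. The number of members called between the layers was 24 to 30 when each sample was left out in turn (24 to 29 lower, 0 to 1 higher in epithelium), 29 of 39 with DESeq2 (59.7% of all genes called) and 25 of 51 without a filter (28.3% of all genes called). With at least 10 counts in every sample only 9 members were tested, and 7 were called, all 7 lower and 0 higher. Of the 28 calls 20 were not tested there, and that of Mmp14 was tested and lost (log2 fold change 0.21). With mouse as a replicate block in the 10 paired samples 23 of 44 were called, against 25 of 39 in these samples without it, and in the interaction 0 members were called with or without that block. Of the 5 calls lost with the block, only that of Mmp23 held in the same samples without it. Mmp2 between the layers was -0.021 with DESeq2, -0.016 with RLE size factors and -0.25 with at least 10 counts in every sample, and -0.13 to 0.55 when 1 sample was left out; the cause was not tested.

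By age in epithelium 22 of 249 signs turned and in stroma 11 of 189, all of values not called. In the 5 mice with both layers the epithelial log2 fold change was -0.29 for Adamts10, -0.047 for Adamtsl5, 0.019 for Mmp14, -0.0041 for Mmp2 and -0.11 for Timp2. When 1 sample was left out it ran from -0.014 to 0.55 for Adamts10, -0.58 to 0.17 for Adamts5, -0.22 to 0.62 for Adamtsl1, -0.17 to 0.42 for Adamtsl3, -0.15 to 0.041 for Mmp14, -0.044 to 0.27 for Mmp15, -0.038 to 0.18 for Mmp2, -0.092 to 0.35 for Timp2 and -0.0033 to 0.40 for Timp3. In stroma it ran from -0.45 to 0.14 for Adamts10, -0.48 to 0.38 for Adamts2, -0.78 to 0.51 for Adamtsl1, -0.032 to 0.58 for Mmp14, -0.24 to 0.18 for Mmp15, -0.86 to 1.08 for Mmp19 and -0.70 to 0.068 for Timp4. Without a filter and with DESeq2, 36 and 28 of all genes were called by age in epithelium, against 2, and 26 and 2 in stroma, against 0. The interaction gave 62 with DESeq2, against 0. Depth limits the low members in OF5, OM8, YF5 and YM4.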

Other observations

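Besides the cluster on chromosome 9 and the pair Adamts1 and Adamts5, the members held 2 other pairs of neighbours no more than 100000 bases apart. Adamts15, which cuts versican, and Adamts8 lie on chromosome 9 (30899155 to 30963838), and Adamts13 and Adamtsl2 on chromosome 2 (26973416 to 27108981). Of these 4 genes 0 were called between the layers by edgeR. Adamts15 was 2.41 ± 0.970 normalized counts (SD) over the 9 epithelial and 3.51 ± 1.64 (SD) over the 5 stromal samples, and Adamtsl2, which binds microfibrils, was 0.265 ± 0.276 and 0.713 ± 0.674.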
